A study of Mus musculus with 3 samples.

Results

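The genes described here encode the secreted and membrane-bound enzymes that cut and cross-link the extracellular matrix of muscle, together with the inhibitors of some of them: the matrix metalloproteinases (Mmp), their tissue inhibitors (Timp), the ADAMTS proteases and ADAMTS-like proteins, the HtrA serine proteases, and the lysyl oxidases (Lox and Loxl). Membership was set by gene symbol, and the families were chosen with earlier results of these data known. Of 60 symbols of these families in the RefSeq annotation, 58 had a probe on the array, with 79 probes among the 39429 that were not controls. The 2 without a matched probe were Mmp27 and Adamtsl5. Of the 58 genes, 32 were measured well enough to be tested among 17460 genes in all, and 26 were not.

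RNA came from lower-limb skeletal muscle of male C57BL/6 mice, 3 controls and 3 mFoxO1KO animals with an inducible deletion of FoxO1 specific to skeletal muscle. Both groups were given doxycycline, at 0.625 g/kg of an AIN93G diet, between the ages of 8 and 14 weeks, so the drug is common to controls and knockouts. The promoter that drives the deletion is not named in the labels. Each of 3 arrays of 2 colours held 1 control RNA in Cy3 and 1 mFoxO1KO RNA in Cy5. No array had the dyes exchanged, so a dye effect of a probe and the genotype cannot be told apart.

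Matrix metalloproteinases are zinc enzymes that are made as inactive proenzymes and between them cleave collagens, gelatin and other matrix proteins, while TIMPs bind and block their active sites. ADAMTS proteases trim procollagens and cut proteoglycans such as aggrecan and versican. Lysyl oxidases are copper enzymes that oxidise lysines in collagen and elastin, which starts the cross-links that stiffen the fibres. In muscle most of this machinery is made by fibroblasts, vascular cells and leukocytes rather than by the fibres, so whole-muscle RNA reports on several cell types at once. In such RNA, fewer cells of a type and less RNA per cell cannot be told apart.

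Values are log2 ratios of mFoxO1KO over control within an array, where 0 is no difference, and levels are log2 intensities after normalisation. A level is compared only between samples for the same probe. Errors after ± are the SD over 3 arrays. Foxo1 itself had ratios of -1.50, -2.42 and -2.27 on the arrays, or 23.9% of control on average (limma, adjusted p = 0.0278). The labelled tissue had its defining transcripts, with all 10 skeletal muscle fibre markers measured. The share of probes bright enough to exceed background ranged from 52% to 56.9% over the channels. The number of arrays limits the precision.

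One protease gene was far lower in the knockout muscle and a pair of cross-linking genes were moderately higher. Htra4, a secreted serine protease of the HtrA family, fell 4.57-fold. Lox and Loxl1, which encode lysyl oxidases, rose 1.38-fold and 1.32-fold. These 3 were the members past an adjusted p of 0.05 (limma, Benjamini-Hochberg over all 17460 genes), with 2 higher and 1 lower among 32. Of all genes tested 2.75% passed, 2.06% higher and 0.699% lower, and of the members 9.38% passed. The other 29 members did not pass. All 7 measured metalloproteinases, all 4 inhibitors and all 12 measured ADAMTS and ADAMTS-like genes were among those that did not.

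**Figure D1:**
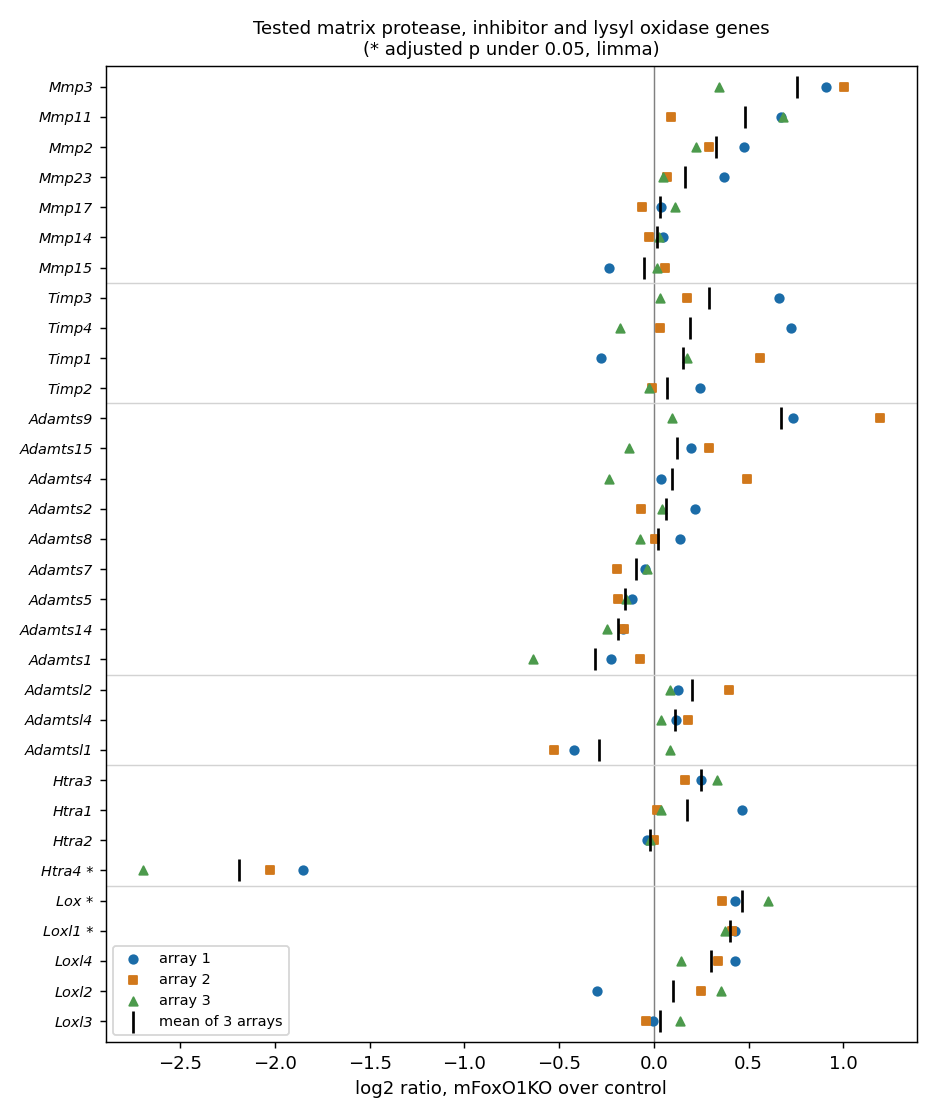
Log2 ratio of mFoxO1KO over control (x axis) for each of the 32 tested genes (y axis, grouped by family), with 1 symbol per array and a bar at the mean of 3 arrays. Htra4 sits alone at the left with all 3 arrays at -1.85 or below, and Lox and Loxl1 lie to the right of 0 on all 3 arrays.

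Htra4 was the member with the largest difference. Its level in the 3 control samples was 10.17, 10.32 and 11.05, and in the 3 mFoxO1KO samples 8.32, 8.29 and 8.36. All knockout samples were below all controls, and the knockout levels lay close together (SD 0.03) while the control levels were spread (SD 0.47). The ratios were -1.85, -2.02 and -2.70, with a mean of -2.19 ± 0.45 (n = 3, limma adjusted p = 0.0215), or 21.9% of control. The gene had 1 probe, above background in both channels on every array. Without array 2 the mean ratio was -2.28 and its adjusted p 0.0871 (limma). The adjusted p was 0.0517 when genes above the median intensity alone were tested, and 0.436 with a variance model that follows intensity and resists outliers, a setting that called no gene of the 17460.

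None of the other 3 HtrA genes passed. Htra1 encodes a secreted protease that degrades matrix proteins. It had levels of 11.75, 12.57 and 12.37 in controls and 12.22, 12.59 and 12.41 in knockouts. The 2 ranges overlapped, and its mean ratio was 0.18 ± 0.25 (limma, adjusted p = 0.35). Htra3, a close relative of Htra1, had ratios of 0.25, 0.17 and 0.33. Its knockout levels (7.74 to 7.98) were all above the control levels (7.49 to 7.68), but its adjusted p was 0.0967 (limma). Htra2, the mitochondrial member of the family, had a mean ratio of -0.02 ± 0.02 from its brightest probe and 0.11 ± 0.07 from the other.

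The lysyl oxidase family had a mean ratio above 0 for all 5 genes, although Loxl2 turned to -0.0038 with the signals processed by the scanner software and Loxl2 and Loxl3 fell below 0 without array 3. The family's median was 0.30 against 0.01 over all genes tested. That median is the value of Loxl4, which passed the filter through the knockout channel alone and could more easily appear higher. Lox is the founding member. Its control levels were 7.54, 7.98 and 7.49 and its knockout levels 7.97, 8.34 and 8.09. The knockout sample was the higher on each array, although the control of array 2 reached the lowest knockout level. The ratios were 0.43, 0.36 and 0.60, with a mean of 0.47 ± 0.13 (limma, adjusted p = 0.0498). A second Lox probe gave 0.39, 0.53 and 0.36, and in a fit with each probe separate its adjusted p was 0.048 (limma).

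Loxl1, which is needed for elastic fibre upkeep, was the most even of the members past the threshold. Its control levels were 8.77, 8.93 and 8.99, and its knockout levels of 9.20, 9.34 and 9.36 were all higher. The ratios were 0.43, 0.41 and 0.37, with a mean of 0.40 ± 0.03 (n = 3, limma adjusted p = 0.047). A second, dimmer probe gave a mean of 0.19 ± 0.11 and did not pass in the fit with each probe separate (limma, adjusted p = 0.161). Both calls lie close to the threshold. With array 1, 2 or 3 left out, Lox had an adjusted p of 0.072, 0.175 and 0.107 and Loxl1 of 0.0665, 0.19 and 0.0961 (limma), with mean ratios between 0.39 and 0.52. Lox passed in 5 of 15 alternative processings and Loxl1 in 6 of 16. Both ratios were above 0 in all of them. Several of these settings reuse the main ratio or leave out 1 of 3 arrays that were all above 0. The sign could not turn in those. The scanner software's processed signals and its deposited log ratio count as separate alternatives but gave the same values.

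**Figure D2:**
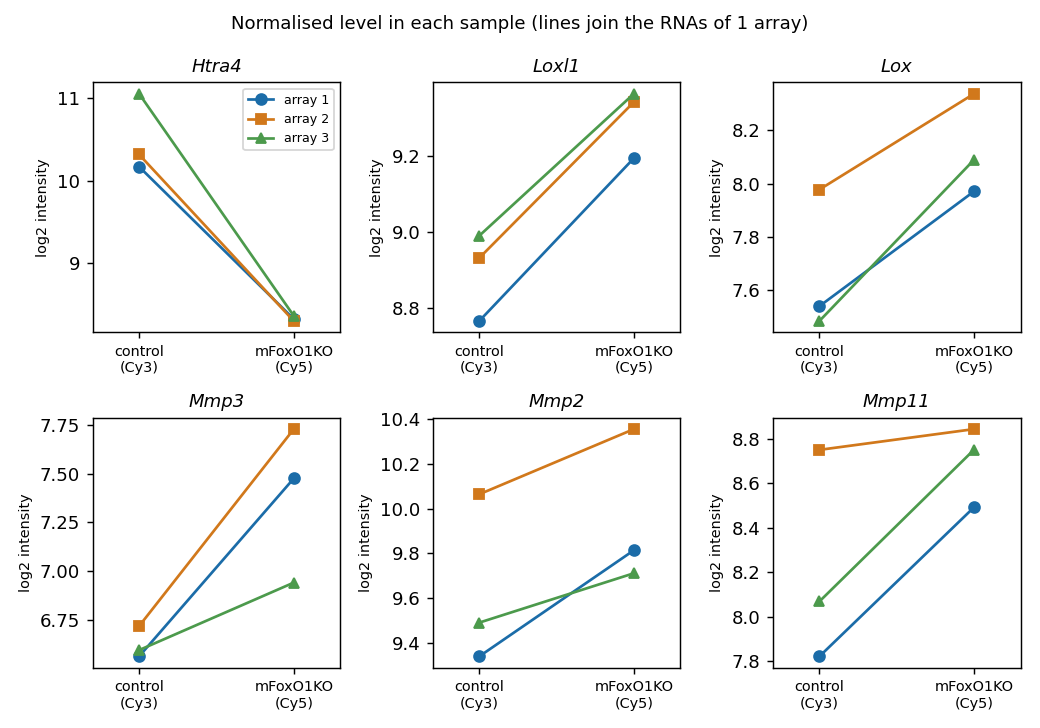
Log2 intensity (y axis, a separate scale per gene) of Htra4, Loxl1, Lox, Mmp3, Mmp2 and Mmp11 in the control and mFoxO1KO sample of each array, joined by a line. The 3 Htra4 lines fall to nearly 1 point, the 3 Loxl1 lines rise in parallel, and the Mmp11 line of array 2 starts high and is nearly flat.

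Loxl4, named after its values were seen, had levels of 6.44, 6.64 and 6.57 in controls and 6.87, 6.98 and 6.72 in knockouts. The groups did not overlap, but the gene was well above background on only 1 of 3 control arrays. Its ratio of 0.30 ± 0.14 did not pass (limma, adjusted p = 0.097). Of the remaining family members Loxl2 had ratios of -0.30, 0.25 and 0.35 and Loxl3 of 0.00, -0.04 and 0.14. Neither had 1 direction across the arrays. The other Loxl2 probes had means of 0.05 and 0.01.

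Where a gene had more than 1 probe above background, the probes could be set against each other. This was so for 8 members. The probes had the same sign for 6 of them and opposite signs for 2, Htra2 and Adamts5. The 6 include Loxl4, whose probes both passed through the knockout channel alone, which favours a shared positive sign. Mmp11 had means of 0.48 and 0.45. The second Loxl4 probe exceeded background on 0 of 3 control arrays and gives only a bound, at least 1.13-fold higher in the knockout.

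**Figure D3:**
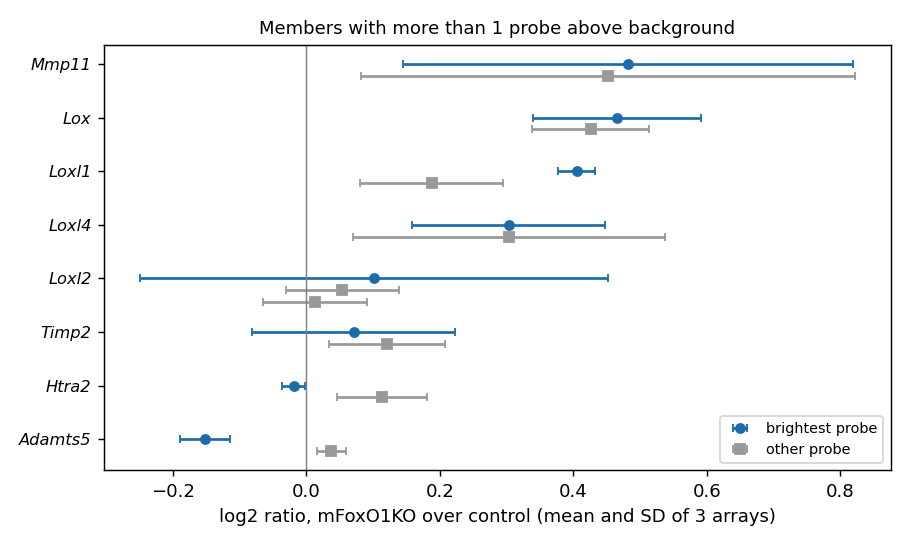
Mean log2 ratio of mFoxO1KO over control (x axis, bars are the SD over 3 arrays) for the 8 members with several probes above background (y axis), with the brightest probe in blue and the others in grey. The Lox probes nearly coincide at 0.47 and 0.43, the Loxl1 probes differ (0.40 and 0.19), and the Adamts5 and Htra2 probes lie on opposite sides of 0.

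Of 22 metalloproteinase genes with a probe, 7 were tested and 15 were not. Mmp3, or stromelysin 1, which cleaves many matrix proteins and activates other metalloproteinases, had the highest mean ratio of the 32 members. Its control levels were 6.57, 6.72 and 6.60 and its knockout levels 7.47, 7.73 and 6.94. All knockout samples were above all controls, and array 3 showed the smallest step. The ratios were 0.91, 1.01 and 0.34, with a mean of 0.75 ± 0.36 (limma, adjusted p = 0.0654), which did not pass. The transcript was well above background on 1 of 3 control arrays and on all 3 knockout arrays, so the control level is poorly measured. Mmp3 thus passed the filter through the knockout channel alone and could more easily appear higher. This bears on its rank and on the gap between the groups. With array 1, 2 or 3 left out the mean was 0.68, 0.63 and 0.96, with an adjusted p of 0.118, 0.236 and 0.0351 (limma). With the signals processed by the scanner software, which add no offset to dim spots, the mean was 1.83 (limma, adjusted p = 0.057).

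Mmp3 lies in a run of 10 metalloproteinase genes on chromosome 9, with no other protein-coding gene between them in RefSeq. Of the 9 with a probe, Mmp3 alone was tested. Mmp13, Mmp12, Mmp1b, Mmp1a, Mmp10, Mmp20 and Mmp7 were above background on none of the arrays in either channel, and Mmp8, the neutrophil collagenase, on 1 control array. Among the genes not above background were therefore the interstitial collagenase genes Mmp1a and Mmp13 and the macrophage elastase gene Mmp12. Mmp9, the gelatinase of leukocytes, which lies outside the run, was also never above background. Over all families 24 of the 26 untested genes were like this, and Mmp19 was above background on 1 knockout array.

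Promoters of this run are shown for 3 genes to place the AP-1 motif, which most of the run holds, and the FoxO motif, which few hold. They are taken from RefSeq on GRCm38.p6 and reach from 250 bases before to 50 after each gene start. Mmp3 is the measured gene, and Mmp10 and Mmp13 are the unmeasured genes of the run with a FoxO match. Capitals mark the AP-1 motif TGANTCA and the FoxO motif GTAAACA, each searched on both strands. The positions are chr9:7445572-7445871 for Mmp3, chr9:7502092-7502391 for Mmp10 and chr9:7272264-7272563 for Mmp13, all on the + strand.
Mmp3: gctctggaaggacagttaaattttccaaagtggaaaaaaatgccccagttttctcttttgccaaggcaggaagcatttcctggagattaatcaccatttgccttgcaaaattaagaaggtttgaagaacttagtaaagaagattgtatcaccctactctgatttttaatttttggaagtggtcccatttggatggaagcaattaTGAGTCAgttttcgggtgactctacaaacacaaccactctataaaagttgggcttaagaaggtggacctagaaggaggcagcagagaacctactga
Mmp10: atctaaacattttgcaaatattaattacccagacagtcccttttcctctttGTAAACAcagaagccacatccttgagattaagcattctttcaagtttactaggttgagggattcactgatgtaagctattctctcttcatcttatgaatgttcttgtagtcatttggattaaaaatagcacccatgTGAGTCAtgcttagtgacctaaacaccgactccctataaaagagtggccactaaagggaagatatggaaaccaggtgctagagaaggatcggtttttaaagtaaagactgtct
Mmp13: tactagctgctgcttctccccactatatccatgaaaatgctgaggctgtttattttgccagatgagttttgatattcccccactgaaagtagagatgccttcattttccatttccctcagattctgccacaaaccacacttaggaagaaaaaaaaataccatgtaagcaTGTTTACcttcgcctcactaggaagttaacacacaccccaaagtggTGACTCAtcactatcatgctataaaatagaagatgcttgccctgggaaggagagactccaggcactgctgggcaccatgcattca

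In these windows the AP-1 motif began 46, 63 and 35 bases before the start of Mmp3, Mmp10 and Mmp13. The FoxO motif began 199 bases before the start of Mmp10 and 81 before that of Mmp13, and Mmp3 had no match to those letters. Of 9 promoters of the run in the table, 8 held the AP-1 motif (all but Mmp8) and all 9 the TATA-box letters TATAAA, while 2 held the FoxO motif. Among all 32851 promoters in the table the shares were 7.81%, 13.6% and 3.65%. Promoter windows were found for 37 of the 58 genes, and besides Mmp10 and Mmp13 the FoxO motif was in that of Adamts13, which was not above background. No AP-1 match was found in a member outside the run. Htra4, Lox and Loxl1 had no window in the table. A motif match is a description of letters and not of binding.

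Among the other metalloproteinases Mmp11, or stromelysin 3, had control levels of 7.82, 8.75 and 8.07 and knockout levels of 8.49, 8.84 and 8.75. The control of array 2 lay within the knockout range, and the ratios were 0.67, 0.09 and 0.68 (mean 0.48 ± 0.34, limma adjusted p = 0.113). The ratios of adipocyte markers were also lowest on array 2, with medians of 2.93, 0.22 and 1.87 over 7 measured genes. Their summed control level was highest on that array. Their summed knockout level was lowest there (17.64, 16.62 and 17.28), whereas the Mmp11 knockout level was highest there. Tendon markers (medians 0.36, -0.30 and 0.03) and mural and smooth muscle markers (0.23, -0.04 and -0.02) also had their lowest median on array 2. Schwann, macrophage and neutrophil markers had their highest median there. The part of any of these cells in the Mmp11 values was not tested. Mmp2 encodes gelatinase A, which is activated at the cell surface. It was named after its values were seen, and had ratios of 0.48, 0.29 and 0.22 (mean 0.33 ± 0.13, limma adjusted p = 0.0806). Its levels of 9.34 to 10.06 in controls and 9.71 to 10.36 in knockouts overlapped.

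The 3 tested membrane-type metalloproteinases, Mmp14, Mmp15 and Mmp17, had means between -0.05 and 0.03. Mmp14, the main activator of the Mmp2 proenzyme, had ratios of 0.05, -0.03 and 0.03. Mmp15, another membrane-type enzyme, had -0.24, 0.06 and 0.02. Neither passed (limma, adjusted p of 0.881 and 0.705). Mmp23, the remaining tested gene, was named after its values were seen and had ratios of 0.37, 0.07 and 0.05.

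All 4 inhibitors were tested, and none passed at an adjusted p of 0.05 or at an unadjusted p of 0.05 (limma). Their mean ratios ranged from 0.07 to 0.29. Timp1, which rises in injured and inflamed tissue, had control levels of 7.26, 6.93 and 6.62 and knockout levels of 6.98, 7.49 and 6.80. Its ratios of -0.28, 0.56 and 0.18 had no common direction. Timp2, which both inhibits Mmp2 and takes part in its activation, had ratios of 0.25, -0.01 and -0.02 from its brighter probe. The other Timp2 probe gave 0.05, 0.22 and 0.10. Timp3 is bound to the matrix and also blocks ADAMTS proteases. It had 0.66, 0.18 and 0.03 (mean 0.29 ± 0.33, limma adjusted p = 0.239). Timp4, which is prominent in heart and muscle, had 0.73, 0.03 and -0.18. For Timp3, Timp4 and the brighter Timp2 probe the highest ratio was that of array 1, and the other arrays lay between -0.18 and 0.18. On the other Timp2 probe array 1 had the lowest ratio.

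Of 19 ADAMTS genes 9 were tested and 10 were not. None passed, and 4 of the 9 had an unadjusted p under 0.05 (limma), beside 26.8% of all genes tested. Adamts9, a protease of versican and aggrecan, had control levels of 8.03, 8.63 and 8.59 and knockout levels of 8.76, 9.83 and 8.68. The knockout levels were all higher, by very unequal steps of 0.73, 1.19 and 0.09 (mean 0.67 ± 0.55, limma adjusted p = 0.135). Adamts1, which cleaves the same proteoglycans and is induced by inflammation, had the lowest mean of the ADAMTS genes, with ratios of -0.23, -0.08 and -0.64 (limma, adjusted p = 0.184).

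The remaining pair under that unadjusted threshold were chosen after their values were seen. Adamts14, a procollagen N-proteinase, had ratios of -0.16, -0.16 and -0.25 with knockout levels all below the controls. Adamts5, the major aggrecanase of cartilage, had -0.12, -0.19 and -0.15 from its brighter probe, and 0.06, 0.02 and 0.03 from the other. Of the ADAMTS-like genes, which lack a protease domain, 3 were tested and none passed or had an unadjusted p under 0.05 (limma). Adamtsl2 had 0.13, 0.40 and 0.08, and Adamtsl1 had -0.42, -0.53 and 0.09. Adamtsl2 was well above background on only 1 of 3 control arrays, and its mean ranged from 0.11 to 1.21 over the alternative processings. The tested ADAMTS and ADAMTS-like genes not named so far, Adamts2, Adamts4, Adamts7, Adamts8, Adamts15 and Adamtsl4, had means between -0.09 and 0.12.

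Across the 32 tested genes, 24 mean ratios were above 0, or 75% against 51.8% of all genes tested, with a median of 0.11 against 0.01. The sign was the same on all arrays for 19 members, or 59.4% against 52.4%. An unadjusted p under 0.05 was found for 12 members, 8 higher and 4 lower, or 37.5% against 26.8% (limma). Control and knockout levels did not overlap for 8 members, or 25% against 25.8%, which is about the background share. For 19 members the absolute mean ratio was under 0.2. Members that passed the filter through the knockout channel alone were 6 of the 32, and they could more easily appear higher.

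The members' levels also followed the array. Array 2 held the highest of the 3 control levels for 22 of 32 members and the highest of the 3 knockout levels for 20. Among all genes tested the shares for array 2 were 31% and 24.5%. The summed level of 8 fibroblast markers was also highest on array 2 in both channels, at 16.06 in the control and 16.09 in the knockout against 15.47 to 15.69 elsewhere. The summed tendon, Schwann, mural and neutrophil markers were highest on array 2 in both channels as well, so this held for 5 of 10 marker lists. The part of these cells in the members' values was not tested.

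Markers of other cell types were set beside the members. None of the 6 measured macrophage, 6 endothelial, 8 fibroblast, 6 tendon or 7 adipocyte markers passed (limma), against 3, 2, 3, 0 and 6 with an unadjusted p under 0.05. Of all genes tested 26.8% had such a p and 2.75% passed, and the fibre marker counts below are to be read beside these shares too. The summed adipocyte marker level was 15.3 to 16.5 in controls and 16.6 to 17.6 in knockouts. The macrophage marker medians were -0.05, 0.62 and 0.61 on the 3 arrays, with summed levels of 11.09 to 11.57 in controls and 11.49 to 11.85 in knockouts. Of the 9 neutrophil markers 3 were measured, with summed levels of 8.65 to 8.78 in controls and 8.96 to 9.99 in knockouts, and Mpo, Ngp and Retnlg were not among the genes tested. S100a9 had ratios of 0.89, 2.19 and 0.76, while Camp and Elane had means of 0.23 and 0.07. Of 10 skeletal muscle fibre markers 2 passed, Mb higher (0.57 ± 0.14) and Myl1 lower (-0.60 ± 0.09; limma, adjusted p of 0.0448 and 0.0355), and 5 had an unadjusted p under 0.05. Their summed level was 19.50 to 19.57 in controls and 19.58 to 19.69 in knockouts. These marker genes were named after their values were seen. The part of these cells in the ratios was not tested.

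The substrates and partners of these enzymes gave no gene past the threshold. Of 74 tested genes in 5 lists of matrix substrates, plasminogen activators, other proteases, assembly factors and inducers, none passed at an adjusted p of 0.05 and 21 had an unadjusted p under 0.05 (limma), a share near the 26.8% of all genes tested. Their median ratio was 0.12, close to the members' 0.11. Of 21 substrate genes 17 had a mean above 0, where 51.8% of all genes did. Thbs1, an adhesive glycoprotein that activates latent TGF-beta, had 0.40, 0.69 and 0.87 (limma, adjusted p = 0.0519). The laminin chain genes Lamb1 and Lama2 had 0.54 ± 0.23 and 0.50 ± 0.21 (limma, adjusted p of 0.0654 and 0.0663). The fibrillar collagen genes Col1a1 and Col3a1, whose products Lox cross-links and which were named after their values were seen, had 0.10 ± 0.27 and -0.22 ± 0.47. Eln, the elastin gene, also named so, had 0.14 ± 0.20.

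Of 19 assembly genes 15 had a mean above 0, beside the same 51.8%. Fbln1, an elastic fibre component, had 0.37 ± 0.16, Mfap5, a microfibril protein, 0.31 ± 0.14, and Postn, a matricellular protein that promotes collagen cross-linking, 0.21 ± 0.05 (limma, adjusted p of 0.0785, 0.0894 and 0.108). Of 19 other proteases and regulators 9 had a mean above 0, and the median of that list was -0.05. In it Pcsk5, a proprotein convertase, had 0.53 ± 0.30. Adam19, a membrane-bound sheddase, had -0.25 ± 0.07, and Tll1, a procollagen C-proteinase, -0.21 ± 0.04 (limma, adjusted p between 0.0858 and 0.103 for these 3).

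Of 5 tested genes in the list of plasminogen activators and serpins 4 had a mean above 0. Serpinf1, a serpin, had 0.28 ± 0.22 and Plaur, the urokinase receptor, 0.40 ± 0.45. Of 10 inducers 6 had a mean above 0. Tgfb1 and Tgfb2, growth factors that raise lysyl oxidase and Timp1 expression in many cells, had 0.23 ± 0.11 and 0.21 ± 0.18. Smad3, a mediator of their signal, had 0.29 ± 0.30. None of the 5 genes with values given here passed (limma, adjusted p between 0.121 and 0.221).

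**Figure D4:**
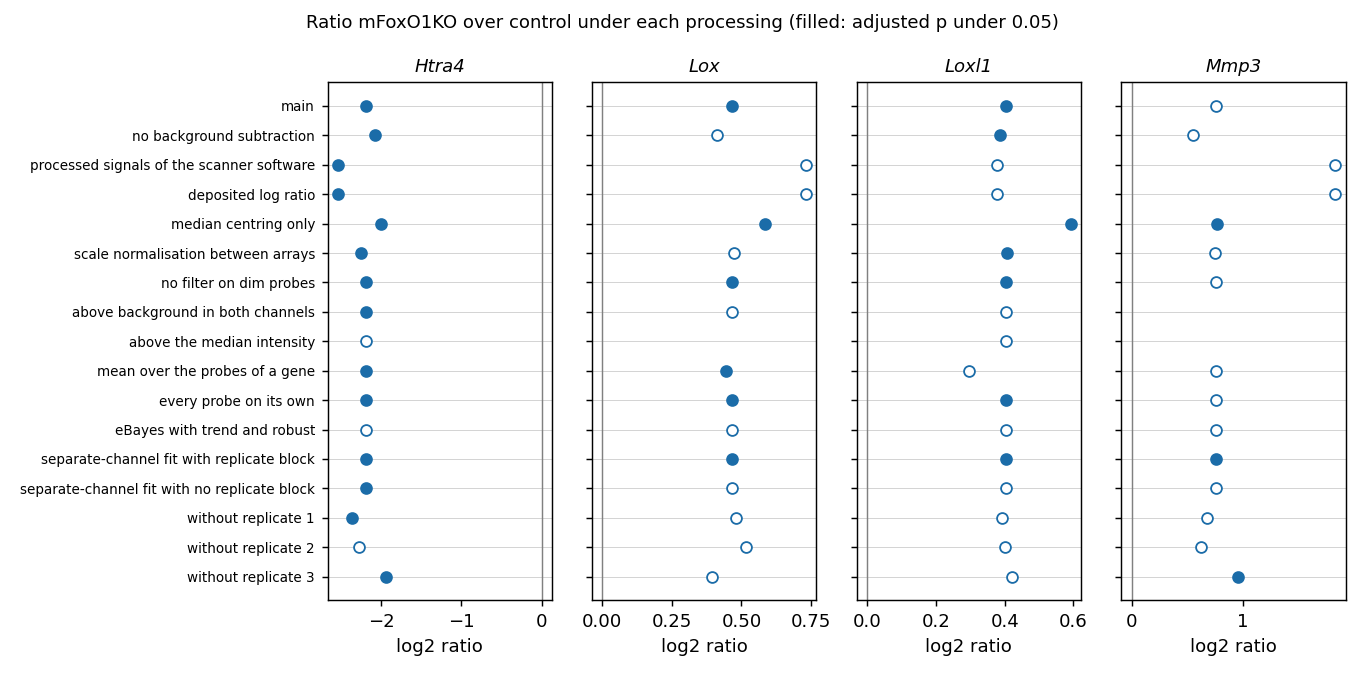
Mean log2 ratio of mFoxO1KO over control (x axis, a separate scale per gene) for Htra4, Lox, Loxl1 and Mmp3 under the main processing and each alternative that gave a value (y axis), filled where the adjusted p was under 0.05. All values of Htra4 lie left of 0 and all values of the other 3 right of it. Several alternatives reuse the main ratio, so the side of 0 was fixed there. Htra4 is filled in 13 of 16 alternatives, Lox in 5 of 15, Loxl1 in 6 of 16 and Mmp3 in 3 of 14. The processed signals of the scanner software and the deposited log ratio gave the same values but count as separate alternatives.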

How the data were processed

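The files deposited by the authors are scanner output, 1 per array, from Agilent Feature Extraction, version 11.5.1.1 per the file headers and 9.3.2.1 per the submitters' processing notes. They hold, per the file headers, median intensities of spots and local backgrounds, processed intensities, and a log10 ratio of Cy5 over Cy3 made from them by the software. Per the labels, 0.2 µg of RNA was amplified and labelled. The planned background correction was to use mean signals. Median signals were taken instead, because those are what the files used here hold. Between 281 and 319 outlier spots per array were left out.

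Median signals were corrected with normexp (offset 50), which shrinks ratios of dim spots, then put through loess within each array, in which control spots had weight 0. Levels were taken after Aquantile. The files used here have no gene names, so the symbols were matched by accession without version to RefSeq (GRCm38.p6), which named 27508 of 39429 probes (69.8%). A probe was kept if well above background in the same channel on all 3 arrays (at least 0.5 of its spots), and the brightest probe stood for a gene. The log2 ratios were tested against 0 with limma 3.58.1 (lmFit, eBayes) under R 4.3.3, two-sided. The fit was also run on simulated ratios with independent noise and no dye effect, a check of the code and not of these results. Pairing comes from the shared array, and the 2 channels of an array had a consensus correlation of 0.417.

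Named genes are members past the threshold, members with 1 sign on all arrays and an absolute mean ratio of at least 0.5, the 2 highest and 2 lowest of each family, and up to 3 genes of each list by smallest p, of which 1 is not reported here. Others are said to have been named after their values were seen, or are given by range. The members and lists were chosen with earlier results of these data known. The headers name an older mouse build than RefSeq's, and no coordinate was taken from the files.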

Additional observations from a re-analysis of the deposited data

How the results depend on the processing

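For 24 named members, 365 ratios were recomputed over 16 alternatives. Direction and side of the threshold were kept in 324, a call was lost in 23 and gained in 6, and the sign turned in 12. Some alternatives change the test or the genes tested and reuse the main ratio, so the sign could not turn there. The main processing called 481 genes, 3 members and 0 other matrix genes (limma). Without background subtraction 274 genes were called and Htra2 had 1.27e-05. The scanner software's processed signals and its deposited log ratio each gave 212 genes, 1 member and 1 other matrix gene, and -0.0038 for Loxl2. Their values were the same for each named member, so the totals above count the same ratios under both names. Median centring without loess moved the median of all genes to 0.16 and called 1204 genes, 6 members and 10 other matrix genes, with 0.19 for Htra2 and 0.084 for Mmp15, so values there are to be read against that shift. Scaling between arrays called 830 genes and 1 other matrix gene, and no filter on dim probes 746 and 1. Requiring both channels above background left 55 genes and 1 member, and testing above the median intensity 9 genes and 0 members. The mean over probes gave Htra2 0.048. The variance model with trend and robust estimation called 0 genes and 0 members. A separate-channel fit with the array as replicate block called 1649 genes, 5 members (Htra4, Loxl1, Lox, Mmp3 and Loxl4) and 4 other matrix genes, and without the block 216 genes and 1 member. Leaving out 1 array gave 49 to 405 genes, 0 to 2 members and 0 to 2 other matrix genes, fewest without array 2. The ratio then ranged from -0.025 to 0.30 for Loxl2, -0.023 to 0.067 for Loxl3, -0.11 to 0.039 for Mmp15, -0.049 to 0.37 for Timp1, -0.017 to 0.12 for Timp2 and -0.073 to 0.38 for Timp4. The causes were not tested. Dim signals limit Mmp3, Loxl4, Adamtsl2 and Adamts7, whose control channel was above background on 1 array, and Timp1 and Mmp23, with 2 such arrays.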
